A study of Arabidopsis thaliana with 6 samples.

Results

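Calmodulins and the touch-induced calmodulin-like genes of Arabidopsis thaliana were examined in seedlings kept at their growth temperature or given a short heat treatment. The 10 genes were chosen by locus from what is known of them, at a time when earlier results of these data were known. The calmodulins were CAM1 (AT5G37780), CAM2 (AT2G41110), CAM3 (AT3G56800) and CAM7 (AT3G43810). The calmodulin-like genes were CML9 (AT3G51920, CAM9 in RefSeq), CML12 (AT2G41100, TCH3), CML23 (AT1G66400), CML24 (AT5G37770, TCH2), CML37 (AT5G42380) and CML38 (AT1G76650). Each gene was found through the Entrez Gene identifier in the authors' annotation. All 10 were measured, each by 1 probe set that names no other gene, out of 20310 genes measured by single-gene probe sets. A probe set is the group of short probes that reports 1 transcript on an Affymetrix array. The calmodulin genes are closely similar in coding sequence, and how far a probe set also detects RNA of another calmodulin was not examined here.

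Whole seedlings of ecotype Col-0 (cultivar Col-0 in the labels) were hybridised to 6 arrays, with 1 sample on each. Seedlings of the control group (3 samples) stayed at 23 °C in light, while those of the heat group (3 samples) spent 30 min at 37 °C, also in light. All seedlings were wild type, had been grown on solid medium with 16 h of light and 8 h of darkness a day, and came from seed that was first kept cold. The labels give the control arrays ages of 10, 11 and 12 days and the heat arrays 13, 14 and 15 days, whereas the series text gives one age for all, so labelled age and treatment run together. The text also names groups in darkness, which were not analysed here. Nothing in the labels says that the samples of a group were grown separately, so p-values measure only the spread between these samples, which may be technical.

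Calmodulin is a small protein that changes shape when it binds calcium and then attaches to enzymes, channels and transcription factors. Plants carry several nearly identical calmodulins and a larger family of calmodulin-like proteins that share its calcium-binding EF-hand motif. The TCH genes of this family are known for a fast rise of their transcripts after touch, wind or wounding. A rise of calcium in the cytosol is also one of the early events after warming, and in Arabidopsis CAM3 acts in heat shock signalling together with the calmodulin-binding kinase CBK3 and the phosphatase PP7, both of which act on heat shock factor HSFA1A.

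Levels are given as deposited, on the log2 scale, where a difference of 1 is a 2-fold change. Array medians lay between 4.39 and 4.53 and array minima between 2.53 and 2.66. The control arrays stood farther apart than the heat arrays: the difference between a pair of control arrays had a standard deviation of 0.36 to 0.55 over all probe sets, against 0.19 to 0.28 between heat arrays. Control replicates 1 and 3 were the most distant pair within a group, so the members' changes are given also without each of them. The leaf genes RCA and LHCA1 lay at 13.22 to 13.60 on all arrays, while 3 floral and 2 seed storage genes lay at 3.03 to 3.64. Of 4 root markers 3 fell after heat, and the summed linear level of the 4 was 2750 to 2960 in control and 942 to 1270 in heat arrays. Most of that sum came from PYK10, which lay at 11.34 to 11.41 in control and 9.70 to 10.19 in heat arrays. The root marker CASP1 changed by -0.09 and was not called. The part of the root markers in the results on calmodulin genes was not tested. In whole seedlings, fewer cells of a type and less RNA per cell cannot be told apart.

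Among the 10 genes, CAM7 rose after heat and no gene fell. The test was limma's moderated test, p-values were adjusted by the Benjamini-Hochberg method across the 22746 probe sets, and a gene was called at an adjusted p under 0.05. Of all probe sets 19.3% were called, 7.82% as higher and 11.5% as lower, so 1 call in 10 genes was not more than the background. At an unadjusted p under 0.05 there was 1 higher gene, CAM7, and 1 lower gene, CML38, where 32.3% of all probe sets passed, 14.1% as higher and 18.1% as lower. The groups did not overlap for these same 2 of 10 genes, against 38.8% of all probe sets. The median change of the 10 genes was -0.42, beside 0.02 over all probe sets. For every member but CAM7 the range of the control arrays was wider than the difference between the group means, as the plot of levels by array shows. CAM7 had a control range of 0.42 and a change of 0.58. A range of single arrays and a difference of means are unlike measures, and they were not tested against each other.

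**Figure D1:**
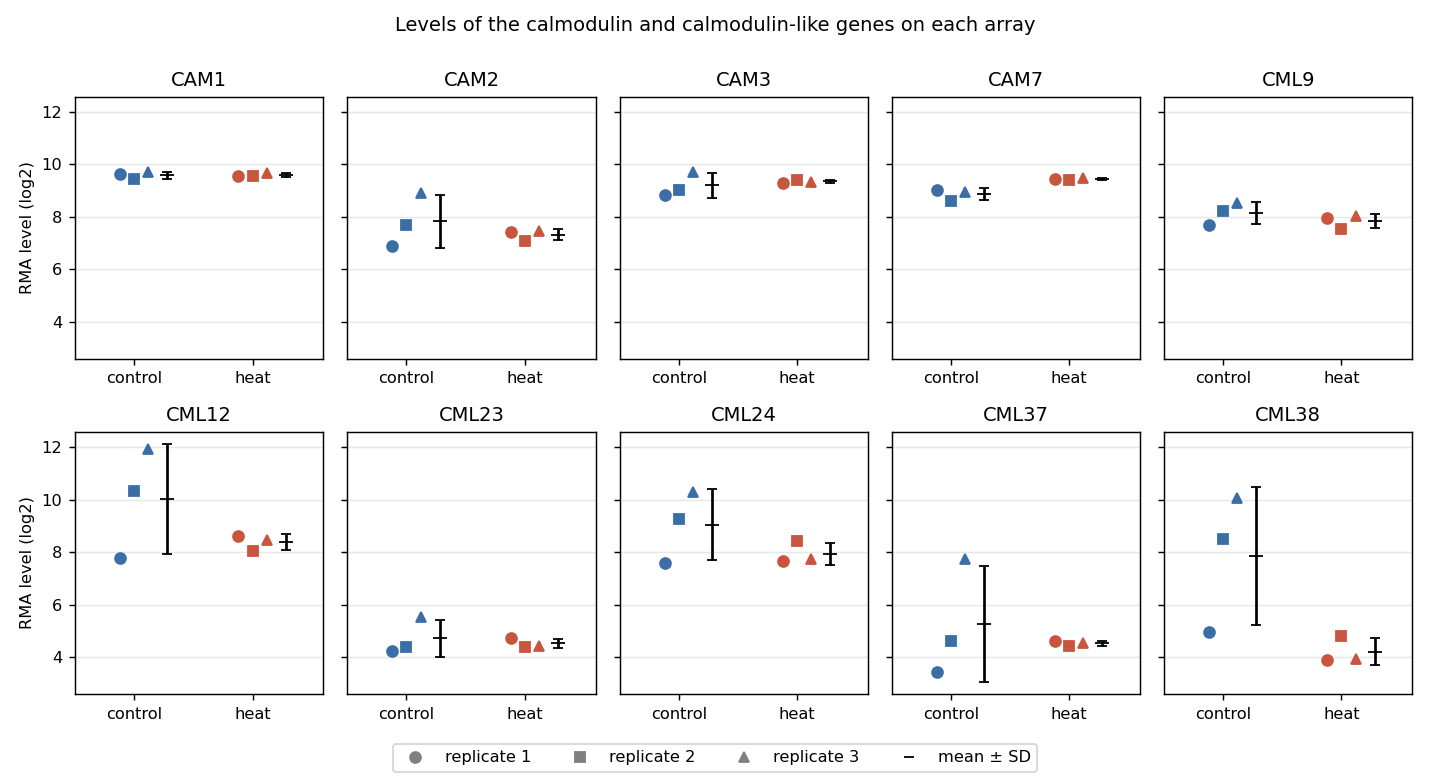
Log2 RMA level of each of the 10 genes on each array, with controls in blue, heat arrays in red, a symbol for each replicate number, and the mean ± SD of the 3 arrays in black. CAM7 is higher on all heat arrays, and CML12, CML24, CML37 and CML38 spread over 2.70 to 5.12 log2 units between control arrays and over 0.18 to 0.92 between heat arrays.

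CAM7 (AT3G43810) encodes a calmodulin that in Arabidopsis also binds the promoters of light-responsive genes. Its level was 9.04, 8.62 and 8.94 in control replicates 1, 2 and 3, and 9.45, 9.40 and 9.50 in heat replicates 1, 2 and 3. All heat arrays lay above all control arrays. The rise was 0.58 ± 0.12 (log2, limma SE), or 1.5-fold, with an adjusted p of 0.0188 in limma. The size was 0.67 without control replicate 1 and 0.62 without control replicate 3, both called. CAM7 was no longer called when heat replicate 1 was left out (0.58, adjusted p = 0.0706) or heat replicate 3 was left out (0.56, adjusted p = 0.0741). It was also not called without moderation of the variances (0.58, adjusted p = 0.0785) or with labelled age as a covariate (0.62, adjusted p = 0.347). After scaling to the Bacillus control RNAs it was 0.08 (adjusted p = 0.748), in a fit where the median of all probe sets was -0.49.

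CAM1 (AT5G37780), listed in RefSeq also as TCH1, was nearly flat. It lay at 9.64, 9.43 and 9.70 in control replicates 1, 2 and 3 and at 9.55, 9.55 and 9.68 in heat replicates 1, 2 and 3. The groups overlapped throughout, and the change was 0.00, with a 95% interval of -0.23 to 0.24, and it was 0.03 without control replicate 1 and 0.06 without control replicate 3. That interval leaves out a change of 2-fold in either direction on this scale.

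CAM3 (AT3G56800), the calmodulin linked to heat shock signalling, lay at 8.83, 9.03 and 9.73 in control replicates 1, 2 and 3. The heat replicates 1, 2 and 3 lay at 9.31, 9.42 and 9.35, inside the control range. The change was 0.17 ± 0.22 (adjusted p = 0.671 in limma), with an interval of -0.37 to 0.70. Without control replicate 3 it was 0.43 and was called (adjusted p = 0.0335), and without control replicate 1 it was -0.02 (adjusted p = 0.966). Whether CAM3 differed after heat therefore depended on which control array was kept.

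CAM2 (AT2G41110) lay at 6.91, 7.70 and 8.91 in control replicates 1, 2 and 3, a 4.0-fold range. The heat replicates 1, 2 and 3 lay at 7.43, 7.07 and 7.45, again inside the control range. The change of -0.53 ± 0.47 was not called (adjusted p = 0.494 in limma) and was 0.01 without control replicate 3 and -0.99 without control replicate 1, neither called. The differences between the changes of the calmodulins were not tested.

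CML9 (AT3G51920), a sensor known in Arabidopsis for roles in abscisic acid responses and defence, had levels of 7.70, 8.23 and 8.53 in control replicates 1, 2 and 3. The heat replicates 1, 2 and 3 were at 7.96, 7.54 and 8.04. The groups overlapped, and the change was -0.31 ± 0.23 (adjusted p = 0.42 in limma). It was -0.54 without control replicate 1 and -0.12 without control replicate 3, neither called.

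CML12 (AT2G41100, TCH3), a touch-induced sensor whose product binds the kinase PINOID of auxin transport, had levels of 7.78, 10.34 and 11.95 in control replicates 1, 2 and 3. In heat replicates 1, 2 and 3 it lay at 8.61, 8.04 and 8.48. Control replicate 3 was 18.0-fold above control replicate 1, and the heat arrays lay above control replicate 1 and below both other controls. The change was -1.65 ± 0.95 (adjusted p = 0.29 in limma). Without control replicate 1 it was -2.77 and was called (adjusted p = 0.0106), and without control replicate 3 it was -0.69 (adjusted p = 0.568).

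CML24 (AT5G37770, TCH2), known for roles in flowering time and ion stress, had levels of 7.58, 9.28 and 10.28 in control replicates 1, 2 and 3. It lay at 7.68, 8.44 and 7.74 in heat replicates 1, 2 and 3. The order of the controls was that of CML12, with a 6.48-fold difference between control replicates 3 and 1. The change was -1.09 ± 0.64 (adjusted p = 0.299 in limma), and it was -1.82 without control replicate 1, where it was called (adjusted p = 0.0183), and -0.48 without control replicate 3 (adjusted p = 0.586). CML23 (AT1G66400), a close relative that overlaps in function with CML24 in flowering, was at 4.23, 4.41 and 5.53 in control replicates 1, 2 and 3, and at 4.74, 4.40 and 4.44 in heat replicates 1, 2 and 3. These levels were near the array medians, only control replicate 3 stood away from the other arrays, and the change was -0.20 ± 0.33 (adjusted p = 0.738 in limma). It was -0.45 without control replicate 1 and 0.21 without control replicate 3, neither called.

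CML37 (AT5G42380), a wound-induced sensor with a role in jasmonate-dependent defence, was at 3.46, 4.62 and 7.73 in control replicates 1, 2 and 3. The heat replicates 1, 2 and 3 lay within 0.18 of each other, at 4.61, 4.43 and 4.56. Its control arrays spanned 19.3-fold, and the control standard deviation of 2.21 was 23.7 times that of the heat arrays. The change of -0.73 ± 0.99 was not called (adjusted p = 0.67 in limma). It was 0.50 without control replicate 3 and -1.64 without control replicate 1, neither called.

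CML38 (AT1G76650), a sensor induced by wounding and low oxygen, was the member with the largest group difference. It lay at 4.95, 8.52 and 10.07 in control replicates 1, 2 and 3, and at 3.90, 4.82 and 3.95 in heat replicates 1, 2 and 3. All heat arrays were below all controls, but the gap between heat replicate 2 and control replicate 1 was small beside the 34.8-fold range of the controls. The change was -3.63 ± 1.20 and missed the threshold (adjusted p = 0.0845 in limma; interval -6.50 to -0.76). It was -5.08 without control replicate 1, where it was called (adjusted p = 0.00162), and -2.51 without control replicate 3 (adjusted p = 0.134).

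**Figure D2:**
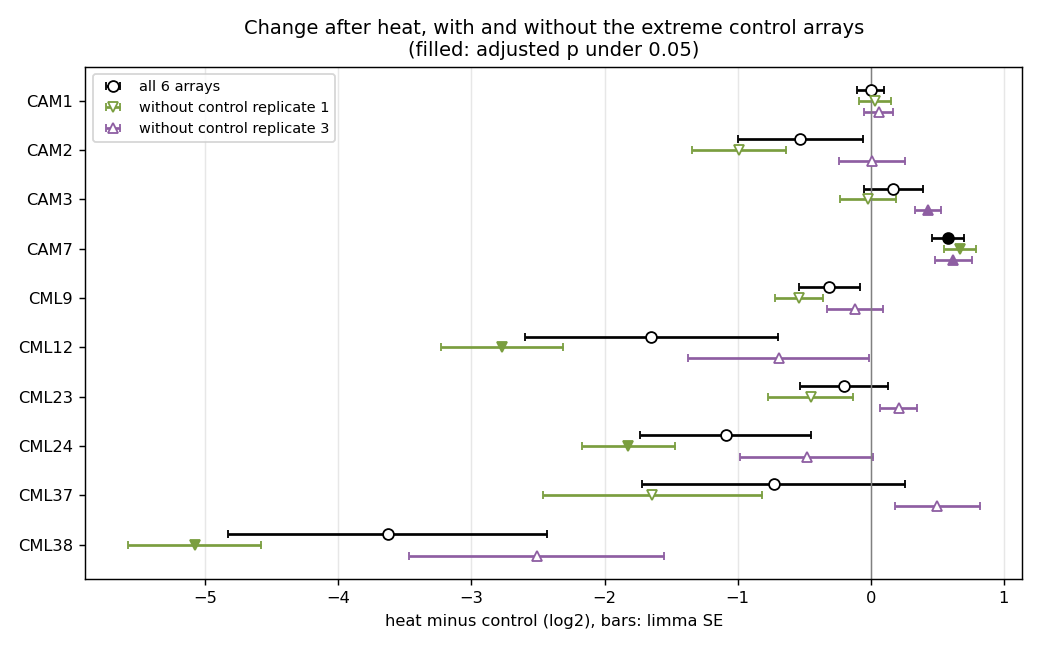
Heat minus control on the log2 scale with limma standard errors for each gene, from all 6 arrays (circles), without control replicate 1 (downward triangles) and without control replicate 3 (upward triangles). Filled symbols mark an adjusted p under 0.05: CAM7 is filled in all 3 fits, CAM3 only without control replicate 3, and CML12, CML24 and CML38 only without control replicate 1.

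All 6 calmodulin-like members had a lower mean after heat, also after quantile normalization, centring on array medians and scaling to the Bacillus controls. None of the 6 passed limma's test on the deposited values of all arrays, and 1 of them was under an unadjusted p of 0.05. After scaling to the Bacillus controls all 6 passed (adjusted p up to 0.0215), with the median of all probe sets at -0.49. In that fit 9667 of all 22746 probe sets fell. None of the 6 passed when it was made without moderation of the variances. CML38 also passed with array weights (adjusted p = 0.0271). Without control replicate 1, 3 of the 10 members fell and 1 rose, and without control replicate 3, 0 fell and 2 rose. Over all 22746 probe sets the former fit gave 2462 falls and 1774 rises, and the latter 2807 falls and 1464 rises. With labelled age as a covariate no member was called, and the changes of CML12, CML24, CML37 and CML38 were -4.68, -3.16, -3.90 and -7.51 (adjusted p from 0.142 to 0.321). That covariate runs with the groups and widens the error.

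The spread between control arrays was larger than that between heat arrays for all 10 members, as it was for 58.1% of all probe sets. The control standard deviation ran from 0.14 for CAM1 to 2.63 for CML38, with a median of 0.86, beside 0.14 over all probe sets. For the heat arrays the members' standard deviations ran from 0.05 to 0.52, with a median of 0.20 beside 0.11. The control standard deviation of CML38 was above that of 99.9% of probe sets, that of CML37 above 99.8% and that of CML12 above 99.7%. That of CAM1 was above 52.3%. Control replicate 3 was at least 2-fold above control replicate 1 for 6 of the 10 members, CAM2 and every calmodulin-like member but CML9, where 3.35% of all probe sets showed such a difference. All heat arrays lay inside the control range for 7 members, against 13.8% of all probe sets. These shares compare single arrays and carry no test, and the members were chosen with earlier results of these data known.

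**Figure D3:**
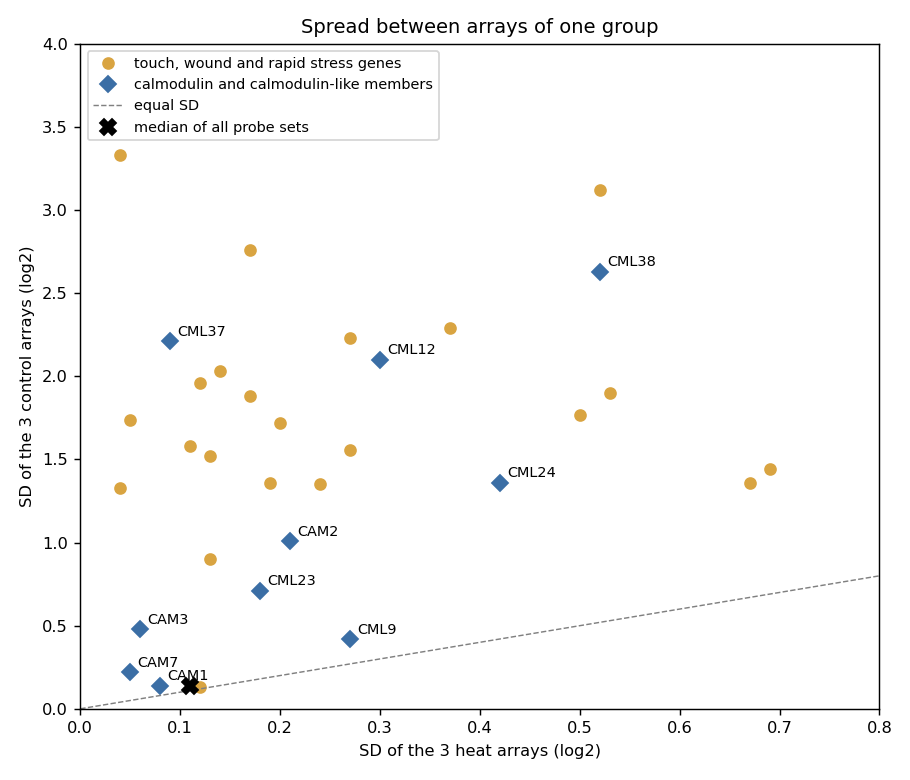
Standard deviation of the 3 control arrays against that of the 3 heat arrays, both in log2 units, for the 10 members (diamonds) and the touch, wound and rapid stress genes (circles); the cross is the median of all probe sets and the dashed line marks equal values. All members lie above the line, with CAM1 and CAM7 near the cross and CML12, CML37 and CML38 above 2.

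The members did not follow a single pattern over the 6 arrays. The levels of CML24 and CML38 correlated with r = 0.96, those of CML12 and CML24 with r = 0.93, and those of CAM2 and CML12 with r = 0.96. CAM1 had r = 0.01 with CML24, and CAM7 had r = -0.82 with CML38. These values describe 6 arrays that share their normalization. Both the difference between the groups and the spread between control arrays enter them.

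The genes most like 3 touch and wound members were sought among 2585 other genes with a standard deviation of at least 0.5 over the 6 arrays. CML12 was followed most closely by the transcription factor gene MYB77 (r = 0.996), BCS1 (AT3G50930, r = 0.995) and AT2G46600 (r = 0.994). For CML24 they were GAE1, an enzyme gene of pectin sugar synthesis (r = 0.998), AT5G17350 (r = 0.996) and AT5G62570, which encodes the calmodulin-binding protein CBP60a (r = 0.993). For CML38 they were AT2G39980 (r = 0.998), ZCF37 (r = 0.997) and CAMBP25, which encodes a calmodulin-binding protein (r = 0.997). All 9 of these genes had their lowest control level in control replicate 1 and their highest in control replicate 3, an order that their choice by likeness to these members largely fixes, and limma called none of them. At an unadjusted p under 0.05 there were 3, the ones most like CML38.

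Several members have a neighbour of the same family, which allowed genes side by side on a chromosome to be compared by pattern. In the order of protein-coding loci in RefSeq (TAIR10.1), CML24 is next to CAM1, CML23 is next to CAM4, CML38 is next to AT1G76640 (CML39), and CML12 is separated from CAM2 by 1 locus. CAM1 spanned 0.27 over the controls, while its neighbour CML24 spanned 2.70. CAM4 spanned 0.27 as well, at 9.73, 9.56 and 9.83 in control replicates 1, 2 and 3, and its neighbour CML23 spanned 1.31. In both pairs the calmodulin was even across the controls and the calmodulin-like gene was not.

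In the other pairs both genes were highest in control replicate 3. CAM2, with its 4.0-fold range, stood beside CML12, which spanned 4.17 log2 units, and AT1G76640 was at 3.41, 3.54 and 4.91 in control replicates 1, 2 and 3, a span of 1.49 beside 5.12 in CML38. On its other side CML12 adjoins AT2G41090, with a change of 1.12 ± 0.44 that was not called (adjusted p = 0.131 in limma). CML9 is next to HSFA7A, a heat-induced heat shock factor gene that lay at 4.28, 4.34 and 6.20 in control and at 11.40, 11.69 and 11.53 in heat replicates 1, 2 and 3. HSFA7A rose by 6.60 ± 0.50 (adjusted p = 0.000273 in limma), and the interval for CML9 was -0.87 to 0.25.

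**Figure D4:**
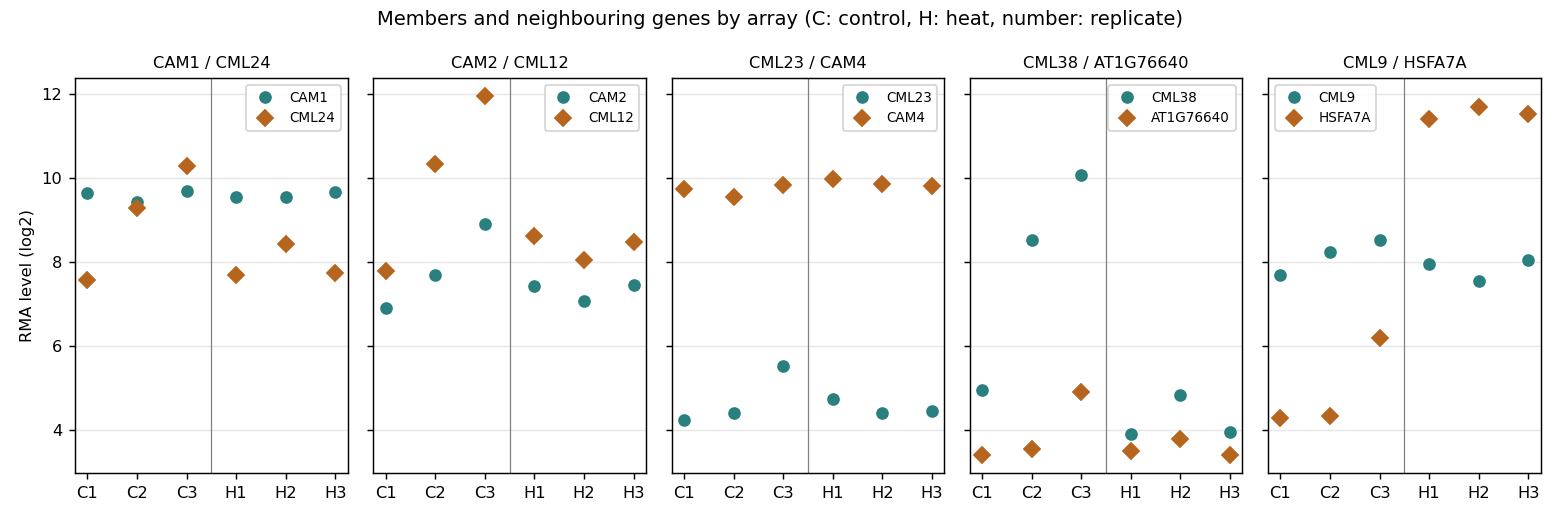
Log2 RMA level on each of the 6 arrays for 5 members (circles) and a neighbouring gene (diamonds), with controls left of the grey line and heat arrays right of it; levels of different probe sets are not comparable in height. CAM1 and CAM4 are even while CML24 and CML23 are highest in control replicate 3, and HSFA7A is high on all heat arrays while CML9 is not.

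Other calmodulin and calmodulin-like genes were described from a list of 47 loci, of which 42 were measured. Of these 2 rose and 4 fell in limma, 36 were not called, and the median change was 0.05. Among all probe sets 7.82% rose and 11.5% fell, so neither count was above the background share. Many of the 42, such as CAM8 with a control mean of 3.07, lay near the levels of the floral and seed storage genes. The median change therefore rests in part on genes with little signal. The gene AT1G21550 lay at 3.54, 4.29 and 5.13 in control and at 9.43, 9.49 and 9.67 in heat replicates 1, 2 and 3. This rise of 5.21 ± 0.37 (adjusted p = 0.0002 in limma) exceeded that of any other gene of the list and any member, and it was called under every alternative run. AT3G25600 fell by 2.94 ± 0.52 (adjusted p = 0.00972), AT1G18210 fell by 1.68 ± 0.38 (adjusted p = 0.0251) and AT3G10190 fell by 1.18 ± 0.11 (adjusted p = 0.000551), all in limma. AT1G18210 missed the threshold when control replicate 2 or any single heat array was left out (highest adjusted p 0.0909), without moderation of the variances (0.123) and with the age covariate (0.118). AT3G25600 missed it without moderation and with the age covariate (adjusted p = 0.0793 and 0.051). In the Bacillus fit without moderation AT3G25600 (0.0517) and AT1G18210 (0.0628) were not called. The calmodulin genes CAM4 and CAM5 changed by 0.18 (adjusted p = 0.268) and 0.31 (adjusted p = 0.251) and were not called.

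Among 15 proteins that calmodulin binds or that act with it, 2 rose and 2 fell in limma, with a median change of -0.16. The shares over all probe sets were 7.82% and 11.5%, so counts this small do not set the list apart. The kinase gene CBK3 (CRK1 in RefSeq), linked in Arabidopsis to heat shock signalling by CAM3, lay at 5.98, 5.91 and 5.98 in control and 6.40, 6.55 and 6.48 in heat replicates 1, 2 and 3. It rose by 0.52 ± 0.08 (adjusted p = 0.00522 in limma), and by 0.02 after scaling to the Bacillus controls, which was not called. The phosphatase gene PP7 lay at 5.96, 6.01 and 5.88 in control and 6.30, 6.40 and 6.30 in heat replicates 1, 2 and 3. It rose by 0.38 ± 0.08 (adjusted p = 0.0177 in limma), and its direction turned to -0.12 after that scaling. PP7 missed the threshold when any single heat array was left out (highest adjusted p 0.0593) and with a trended prior (adjusted p = 0.0704).

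For both genes all heat arrays lay above all controls, and the controls of CBK3 differed by no more than 0.07. The genes of this list of 15 that fell were DWF1 and CAMTA1 (EICBP.B in RefSeq). DWF1, a calmodulin-regulated enzyme gene of brassinosteroid synthesis, fell by 0.80 ± 0.12 (adjusted p = 0.00518 in limma). CAMTA1, a calmodulin-binding transcription activator gene, fell by 0.59 ± 0.12 (adjusted p = 0.0182 in limma). The call on CAMTA1 was lost without heat replicate 1 or 3 (adjusted p up to 0.0707), with the replicate block (0.0535) and without moderation of the variances (0.0782). In the Bacillus fit without moderation the calls on CAMTA1 (0.0655) and DWF1 (0.0518) were lost. With the age covariate CBK3, PP7, DWF1 and CAMTA1 were all not called (adjusted p from 0.28 to 0.376).

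Of 13 measured genes of calcium channels, pumps and exchangers, 7 fell and 0 rose in limma, against 11.5% and 7.82% of all probe sets. Their median change was -0.84, and none was higher at an unadjusted p under 0.05. OSCA1 (AT4G04340), a channel gated by osmotic stress, fell by 1.87 ± 0.14 (adjusted p = 0.00028 in limma). DND1, which encodes the cyclic nucleotide-gated channel CNGC2, fell by 1.83 ± 0.18 (adjusted p = 0.000847), the vacuolar exchanger gene CAX1 fell by 1.45 ± 0.22 (adjusted p = 0.00558) and the vacuolar channel gene TPC1 fell by 1.23 ± 0.09 (adjusted p = 0.000271). Without control replicate 1 or 2 there were 6 such falls, without control replicate 3 there were 7, and without any single heat array there were 5. Leaving out 1 array gave 1473 to 2807 falls over all 22746 probe sets. Without moderation 4 of the 13 genes fell and with the age covariate 2, where 1178 and 227 of all probe sets fell. CAX1 was not called in the last 2 of these fits (adjusted p = 0.0573 and 0.23), nor DND1 with age (0.096). The controls of OSCA1 lay at 9.11, 8.91 and 9.08, an even level unlike that of CML12 or CML38. Among 28 calcineurin B-like sensors and calcium-dependent kinases 1 fell and 0 rose in limma. That gene was CPK13, with a fall of 0.61 ± 0.10 (adjusted p = 0.00612 in limma). At an unadjusted p under 0.05, 7 of the 28 were lower and 0 higher, against 18.1% and 14.1% of all probe sets. Without control replicate 1, 4 fell, without control replicate 3, 2 fell and 1 rose, and with the age covariate 0 fell. Over all 22746 probe sets these fits gave 2462, 2807 and 227 falls, with 1464 rises without control replicate 3.

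Of 22 genes listed for fast responses to touch, wounding or other stress, 6 fell and 0 rose in limma, against 11.5% and 7.82% of all probe sets. Their median change was -2.29. At an unadjusted p under 0.05 there were 13 lower and 0 higher, against 18.1% and 14.1% of all probe sets. ARGOS, among those that fell, changed by only -0.46 at levels of 3.17 to 3.90, near those of the floral and seed storage genes. The number that fell was 0 without moderation of the variances and 0 with the age covariate, 10 with a trended prior, 11 with array weights and 20 after scaling to the Bacillus controls. Over all 22746 probe sets these fits gave 1178, 227, 2561, 3061 and 9667 falls, in the same order. ERF6, an ethylene response factor gene, fell by 4.74 ± 0.85 (adjusted p = 0.0106 in limma), and CAF1a, a deadenylase gene, fell by 4.58 ± 0.72 (adjusted p = 0.00609). BAP1, a negative regulator of defence, fell by 3.68 ± 1.01 (adjusted p = 0.0479) and CAF1b fell by 2.82 ± 0.62 (adjusted p = 0.0222). ERF6 and CAF1a were not called without moderation (adjusted p = 0.0838 and 0.065) or with the age covariate (0.0925 and 0.0684). In the Bacillus fit without moderation ERF6 (0.0559), CAF1a (0.051), BAP1 (0.087) and CAF1b (0.0677) were all not called. The call on BAP1 was lost in all fits that left out 1 array except that without control replicate 1 (adjusted p up to 0.138), and the call on CAF1b without control replicate 2 or any heat replicate (up to 0.083).

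Control replicate 3 was at least 2-fold above control replicate 1 for 21 of these 22 genes, as it was for 6 of the 10 members, and 3.35% of all probe sets. This list too was chosen with earlier results of these data known, and the shares were not tested. TCH4, a touch-induced cell wall enzyme gene named after its values were seen, lay at 9.74, 11.88 and 13.15 in control replicates 1, 2 and 3, and at 10.60, 10.90 and 10.53 in heat replicates 1, 2 and 3. As for TCH2 and TCH3, its heat arrays lay between control replicate 1 and the other controls, and its change of -0.91 ± 0.78 was not called (adjusted p = 0.476 in limma). Without control replicate 1, 18 of the 22 genes fell. Without control replicate 2, 2 fell, and without control replicate 3, 5 fell and 2 rose. Over all 22746 probe sets falls were 2462, 1889 and 2807 without control replicates 1, 2 and 3, and the last fit gave 1464 rises.

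**Figure D5:**
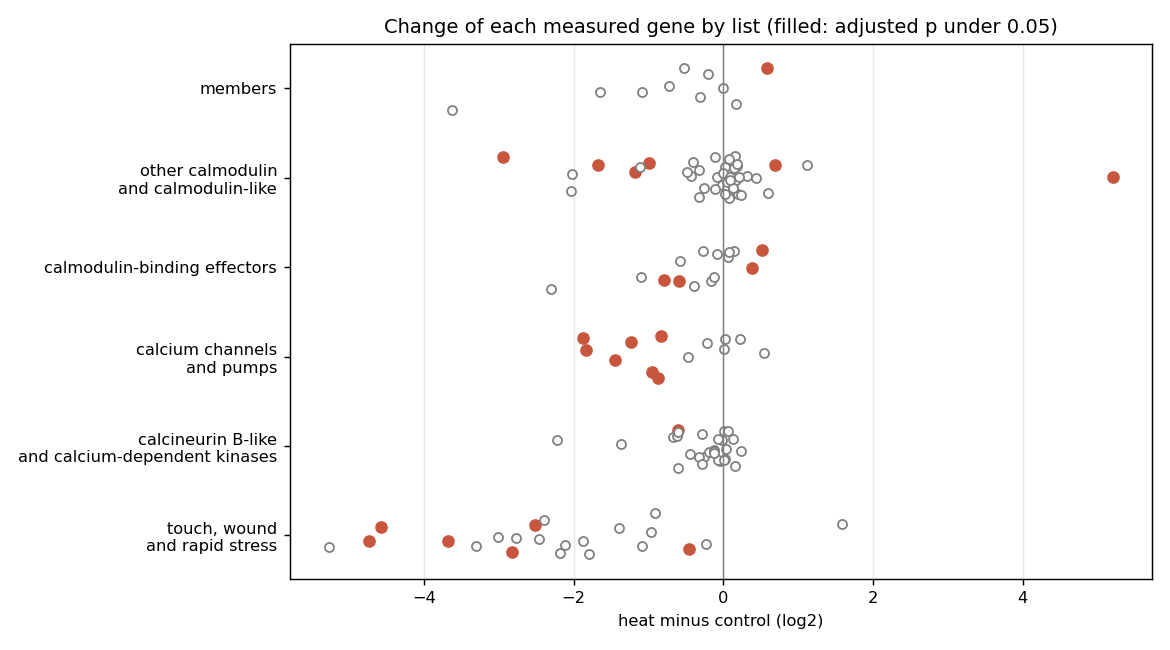
Heat minus control on the log2 scale for each measured gene, by list, with filled red points for an adjusted p under 0.05 and open grey points for the others; vertical scatter within a list has no meaning. CAM7 is the 1 filled member, AT1G21550 stands alone at 5.21, and the called channel, pump and exchanger genes and called rapid stress genes lie below 0.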

How the data were processed

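The deposited values are log2 levels, 1 column per array, made by the authors with RMA, which corrects background, equalises the arrays' distributions and summarises probe sets; the tool is named in the submitters' processing notes, its version is not given in the sources used here. They were used as deposited. The annotated table holds the same levels (136860 of 136860 cells). The 64 control probe sets were left out. Symbols came from RefSeq (TAIR10.1), and its gene start positions gave the locus order. No sequences were used. limma 3.58.1 in R 4.3.3 compared the groups (group as the only factor, 4 residual and 2.65 prior degrees of freedom); the fit was tested on simulated data. Figures were drawn with matplotlib 3.10.9, and tables were made with pandas 2.3.3 and numpy 2.4.6 under Python 3.11.15.

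The members, the lists and the rule for named genes were chosen with earlier results of these data known. The rule named all members, up to 4 called genes per list with the largest change, and 3 genes most like CML12, CML24 and CML38. CAM4, CAM5, TCH4 and the neighbours were named after their values were seen. Alternatives were other scalings, filters, variance models, covariates, a fold minimum and leaving out each array. Precision is limited by there being 3 arrays in each group.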

Additional observations from a re-analysis of the deposited data

How the results depend on the processing

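All members had 1 probe set, so a mean over probe sets changed nothing. Over all probe sets 1778 rose and 2614 fell; these counts were 3054 and 2126 with array median centring, 643 and 9667 after scaling to the Bacillus controls, 971 and 1178 without moderation of the variances, 359 and 227 with the age covariate, and 637 and 906 with a 2-fold minimum. Leaving out 1 array gave 1035 to 1774 higher and 1473 to 2807 lower. The Bacillus fit moved the median of all probe sets to -0.49 and had 41.4 prior degrees of freedom, so its p-values take little account of a single gene's spread; without moderation of the variances, chosen after seeing the data, it gave 371 higher and 2464 lower. Centring moved the median to 0.12.

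Among the members, 1 rose and 0 fell. The number that rose was 0 after Bacillus scaling with either spread, without moderation of the variances, with the age covariate and with a 2-fold minimum, and 0 to 2 when 1 array was left out. The number that fell was 7 after Bacillus scaling (0 without moderation of the variances), 1 with array weights (CML38, adjusted p = 0.0271), and 0 to 3 when 1 array was left out. Signs turned for members that were not called: CAM1 was -0.13 after quantile normalization, -0.50 after Bacillus scaling, -0.15 with the age covariate, and -0.07 and -0.04 without control replicate 2 and heat replicate 3. CAM3 was -0.34 after Bacillus scaling, -0.54 with the age covariate and -0.02 without control replicate 1. Without control replicate 3, CAM2 was 0.01, CML23 0.21 and CML37 0.50. PP7 was -0.12 after Bacillus scaling. With 1 array left out, the ranges were -0.07 to 0.06 for CAM1, -0.99 to 0.01 for CAM2, -0.02 to 0.43 for CAM3, -0.45 to 0.21 for CML23 and -1.64 to 0.50 for CML37. The causes were not tested. Of 160 member values from the other alternatives 129 kept their direction and side of the threshold. Of the 17 list genes named by the rule, 4 kept their call with the age covariate (AT1G21550, AT3G10190, OSCA1 and TPC1) and 9 without moderation of the variances. In the Bacillus fit without moderation 7 of the 17 kept their call. After scaling to the Bacillus controls, 9667 of all 22746 probe sets fell. In that fit 16 of 42 other calmodulin and calmodulin-like genes and 10 of 15 calmodulin-binding effectors fell. So did 9 of 13 channels, pumps and exchangers and 19 of 28 calcineurin B-like sensors and calcium-dependent kinases.

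Samples with the same replicate number did not deviate together (correlations of 0.0438, 0.192 and -0.0767), so the numbers were not taken to pair samples. With the replicate block 1529 probe sets rose and 2266 fell, and among the members 1 rose and 0 fell.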
